A study of Homo sapiens with 6 samples.

Results

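The genes described here encode the proteins of the cytosolic ribosome in cells labelled Huh7. They were chosen by symbol alone: RPL or RPS followed by digits and at most a closing A, L or X, plus RPLP0, RPLP1, RPLP2, RPSA and FAU, with pseudogenes left out. This gave 82 of the 58233 genes in the tables, 49 for the large and 33 for the small subunit. Huh7 is a human hepatocellular carcinoma cell line. One group of 3 libraries came from cells given an empty plasmid (control) and the other group of 3 from cells given a plasmid for the long noncoding RNA TP53TG1. Both groups share the line and a transfection, and the labels name neither the promoter of the plasmid, nor the time after transfection, nor the share of cells that took it up. The labels also do not say whether replicates were separate cultures, so p-values measure the spread between these libraries, which may be technical.

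A ribosome has a small subunit, which reads the messenger RNA and holds the decoding site, and a large subunit, which joins amino acids. Each protein is needed in matched amounts, and most human ribosomal protein mRNAs begin with a C followed by a run of pyrimidines, the 5′ terminal oligopyrimidine or TOP motif, through which mTOR signalling and LARP1 set their translation. RPL5 and RPL11, bound to 5S ribosomal RNA, can bind and inhibit the ubiquitin ligase MDM2. A few members have paralogs used in particular tissues: RPL3L in striated muscle, RPL10L and RPL39L in the testis.

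The start of the gene shows the TOP motif, and windows for the highest members, for 3 of the 5 with the lowest change and for 4 members without the motif show what the letters look like. They are from RefSeq on GRCh38.p14, 5′ to 3′ on the strand of the gene, with 30 bases before and 20 bases from the start site on. Capitals mark a C at the start site with the unbroken C or T run behind it, and a window with no capitals does not start with C. The windows are chr12:56116603-56116652 for RPL41, chrX:119791611-119791660 for RPL39, chr1:153990732-153990781 for RPS27, chr6:33272045-33272094 for RPS18, chr12:120201092-120201141 for RPLP0 and chr19:49487578-49487627 for RPL13A. Those without the motif are chr12:56041888-56041937 for RPS26, chr15:63157458-63157507 for RPS27L, chrX:72277229-72277278 for RPS4X and chr14:46651762-46651811 for RPL10L.
RPL41: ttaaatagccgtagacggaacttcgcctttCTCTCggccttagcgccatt
RPL39: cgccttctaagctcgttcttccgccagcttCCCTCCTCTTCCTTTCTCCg
RPS27: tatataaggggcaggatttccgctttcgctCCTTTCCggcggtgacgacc
RPS18: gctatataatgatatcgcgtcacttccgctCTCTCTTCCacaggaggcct
RPLP0: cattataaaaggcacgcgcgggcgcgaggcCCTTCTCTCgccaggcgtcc
RPL13A: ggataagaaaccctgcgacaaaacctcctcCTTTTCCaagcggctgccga
RPS26: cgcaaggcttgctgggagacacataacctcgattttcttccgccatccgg
RPS27L: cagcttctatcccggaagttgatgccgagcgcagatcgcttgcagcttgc
RPS4X: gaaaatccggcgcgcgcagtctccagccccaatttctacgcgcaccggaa
RPL10L: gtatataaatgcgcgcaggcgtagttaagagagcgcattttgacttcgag

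A promoter entry was matched for 65 of the 82 members. At least 1 annotated start with a C and a C or T run of 5 or more bases was found for 47 of them, 72.3%, against 5.14% of the 27305 genes with an entry. The share was 71.8% for the large subunit (28 of 39) and 73.1% for the small subunit (19 of 26). It was 8.96% among the genes of the mitochondrial ribosome (6 of 67), whose proteins make a separate set. Of the 18 members with no such start, RPS26, RPS27L, RPS4X and RPL10L are shown above, and RPL3, RPL4, RPS15, RPS28 and RPS29 also belong to this set. RefSeq start sites need not be those used in these cells, and a match describes letters only. The motif CCGGAAG, the core of ETS factor sites, occurred on either strand within 250 bases before and 50 after a start in 35.4% of the members and 12.2% of all genes. In the mitochondrial ribosomal protein genes it occurred in 43.3% (29 of 67), so it is not particular to the members. The TATA box letters TATAAA, searched on both strands, occurred in 9.23% of the members and 14% of all genes.

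The ribosomal protein genes took a large share of each library and the groups overlapped in it. Their summed FPKM (fragments per kilobase of transcript, divided by the depth of the library) was 19.3%, 15.1% and 14.9% of the library in control replicates 1, 2 and 3. It was 19.2%, 14.2% and 14.3% with TP53TG1. Replicate 1 was the highest in either group, and the groups overlapped, at 16.4 ± 2.47% and 15.9 ± 2.84% (mean ± SD, n = 3). Within each numbered pair the share was lower with TP53TG1, in 3 of 3 pairs, by less than the gap between replicate 1 and the others. Of the 82 members, 49 had a mean of at least 1000 FPKM, 27 lay between 100 and 1000, 4 between 1 and 100, and RPL3L and RPL10L under 1. Of the 100 genes with the highest mean, 46 were members.

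Large and small subunit genes kept nearly the same balance in all libraries. Large subunit genes took 11.9%, 9.47% and 9.36% of the control libraries and 11.8%, 8.89% and 8.90% of those with TP53TG1. For the small subunit the shares were 7.38%, 5.66% and 5.53% in the controls and 7.37%, 5.36% and 5.38% with TP53TG1. The ratio of large to small was 1.61, 1.67 and 1.69 against 1.60, 1.66 and 1.66, so it was lowest in replicate 1 of each group and the groups overlapped. Both subunit shares and the ratio were lower with TP53TG1 in 3 of 3 numbered pairs, which was not tested. The median level of the tested genes was 1201 FPKM in the large and 1110 FPKM in the small subunit, taking each gene's mean over 6 libraries.

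**Figure D1:**
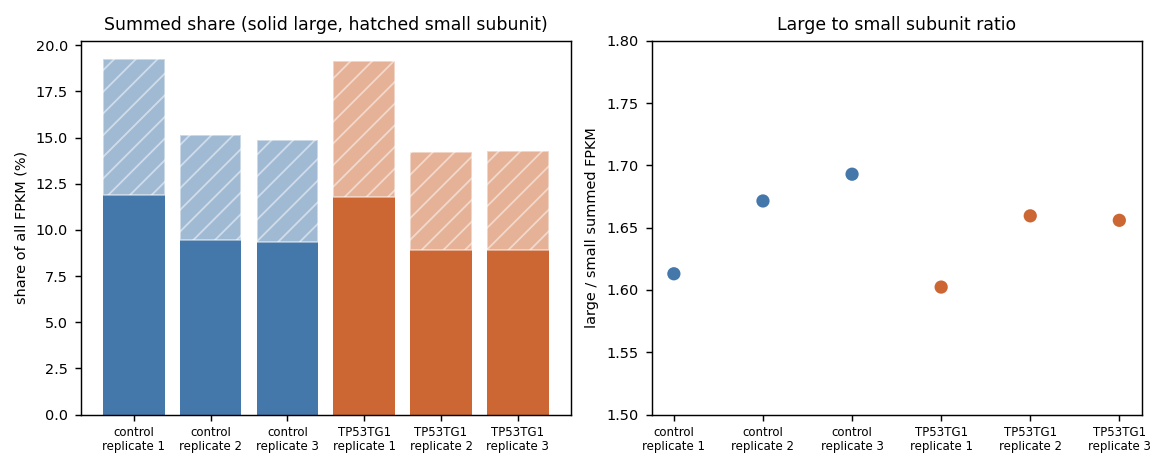
Left, the summed FPKM of ribosomal protein genes as a percentage of each library (solid bars, large subunit; hatched bars, small subunit); right, the ratio of large to small subunit FPKM, on an axis that does not start at 0. Both libraries numbered 1 hold over 19% and have the lowest ratio of their group, while control and TP53TG1 libraries overlap in both panels.

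The libraries differed in ways that touch these values. TP53TG1 itself was at 10.6, 5.25 and 6.15 FPKM in the controls and at 69.8, 134 and 70.5 FPKM with its plasmid. Total FPKM was lower in every TP53TG1 library (599081 to 625560) than in every control (667387 to 890541). Small structured RNAs took 6.61% of TP53TG1 replicate 1 and between 0.257% and 1.53% of the other libraries, and the mean coding transcript, weighted by FPKM, was 1385 nt long in control replicate 1 and 1290 nt in TP53TG1 replicate 1, while the other 4 libraries lay between 1710 and 1768 nt. A median-of-ratios factor, which sets the typical gene equal between libraries, was 0.601 for TP53TG1 replicate 1 and 1.01 to 1.19 for the others. With that scaling the median change over all tested genes moved from -0.35 to -0.00 on the log2 scale, so changes below are also given relative to it.

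Several defining hepatocyte markers were near 0, which goes against the label of the line, and intestinal markers differed between the groups. Of the hepatocyte markers 7 of 10 had a mean of at least 1 FPKM, but AFP (0.63 to 3.49), APOB (0.20 to 2.41) and SERPINA1 (0.47 to 1.92 FPKM) only just, with ALB between 0.53 and 1.22 FPKM and APOA1 and TTR under 1 FPKM. Of 5 intestinal markers 4 were above 1 FPKM in the mean, with the factor CDX2 at 4.71 to 10.2 FPKM and CDX1 listed at 0 throughout. The summed intestinal markers were lower with TP53TG1 without overlap, at 65.0 to 144 FPKM against 157 to 212 FPKM in the controls. The keratin KRT20 (51.1 to 112 against 117 to 171 FPKM), the cadherin CDH17 (6.85 to 20.9 against 27.1 to 33.7 FPKM) and VIL1 (0.71 to 2.86 against 3.72 to 5.99 FPKM) were each lower without overlap as deposited, where 13.3% of all tested genes were. Their log2 changes were -0.88, -1.09 and -1.09 as deposited and -0.47, -0.71 and -0.83 after median-of-ratios scaling, with a Benjamini-Hochberg adjusted p of 0.748 for each by limma as deposited. After the scaling the groups overlapped for KRT20 but not for CDH17 and VIL1, where 2.05% of all tested genes were lower without overlap. The summed hepatocyte markers overlapped (26.7 to 69.0 against 60.2 to 78.1 FPKM), the 5 fibroblast markers summed to 21.4 to 29.3 FPKM with TP53TG1 against 18.3 to 20.4 FPKM, and 0 of 4 blood markers had a mean of 1 FPKM. Their part in the ribosomal protein values was not tested. In bulk RNA, fewer cells of a type and less RNA per cell cannot be told apart.

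No ribosomal protein gene passed a Benjamini-Hochberg adjusted p of 0.05 between the groups by limma. The 80 members whose mean reached 1 FPKM entered a test among 12853 genes on log2(FPKM + 1), TP53TG1 minus control, with limma. None had a Benjamini-Hochberg adjusted p under 0.05, where 0.00778% of all tested genes did, and the lowest adjusted p of a member by limma was 0.748. None had an unadjusted p under 0.05 either, where 1.91% of all genes did in the lower and 0.436% in the higher direction. When the replicate number entered as a block, 7 members (5 large, 2 small) had an unadjusted p under 0.05, all lower with TP53TG1, where 9.65% of all genes did in that direction. The lowest Benjamini-Hochberg adjusted p among members was then 0.198 by limma, with 1.49% of all genes past 0.05. After median-of-ratios scaling 1 member, RPS26, had an unadjusted p under 0.05, higher with TP53TG1, where 0.731% of all genes did.

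The members' values were slightly lower with TP53TG1 as deposited, by about as much as those of genes in general, beside the lower intestinal markers given above. Their median log2 change was -0.31 as deposited and 0.10 after median-of-ratios scaling, so the direction depends on the scaling. Set against the median of all genes in the test it was 0.04 as deposited and 0.10 after scaling. The log2 change was below 0 for 79 of 80 members and for 91.4% of all genes as deposited, and for 8 of 80 members and 50.9% of all genes after scaling. Other abundant genes lay at about the same place: the 832 other genes whose mean reached 100 FPKM had a median of 0.05 relative to all genes as deposited and 0.11 after scaling. The median was -0.32 for the large and -0.30 for the small subunit as deposited, and 0.09 and 0.10 after scaling. Mitochondrial ribosomal protein genes, 76 tested, had a median of -0.31 as deposited and 0.08 after scaling.

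The position of the members relative to all genes rested on single libraries. Without control replicate 1 the members' median was 0.31 above that of all genes and 80 of 80 members lay above it. Without TP53TG1 replicate 1 it was -0.33 relative to all genes and 1 of 80 lay above it. Without both libraries numbered 1 the members' median change was -0.17 and that of all genes -0.16, and 34 of 80 members lay above the latter. In those 4 libraries 17 members (11 large, 6 small), all lower, had an unadjusted p under 0.05 by limma, where 5.13% of all genes did, and 0 were higher at that p (1.27% of all genes). Both controls were above both TP53TG1 libraries for 64 members, against 35.6% of all genes, and below them for RPS26 alone, against 6.57%. RPLP0 was then the lowest at -0.39, and the lowest Benjamini-Hochberg adjusted p of a member by limma was 0.671.

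**Figure D2:**
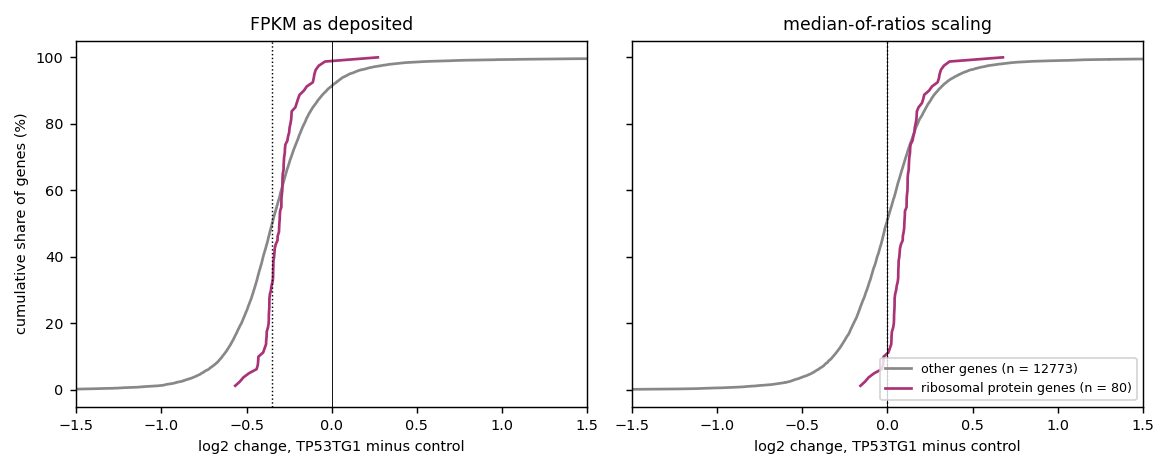
Cumulative share of genes by log2 change, TP53TG1 minus control, for 80 ribosomal protein genes and all other tested genes, from FPKM as deposited (left) and after median-of-ratios scaling (right); the dotted line is the median of all tested genes. The ribosomal protein curve is steeper and, at its middle, sits slightly to the right of the other genes in both panels, at -0.31 as deposited and 0.10 after scaling.

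The groups did not overlap for 14 members as deposited. Every control was above every TP53TG1 library for 13 of 80 tested members, near the 13.3% of all genes that behaved so. RPS26 alone had every TP53TG1 library above every control, where 0.428% of all genes did. Of the 13, 11 are in the large subunit (47 tested), namely RPL36A, RPL30, RPLP0, RPL7A, RPL4, RPL3, RPL27A, RPL10A, RPL14, RPL5 and RPL21. RPS18 is among those of the small subunit (33 tested). The difference between the subunits in this count was not tested. After median-of-ratios scaling no member was lower without overlap (2.05% of all genes) and RPS26 was higher (2.01% of all genes). Comparing libraries by replicate number, 78, 78 and 69 of 80 members were lower with TP53TG1 in pairs 1, 2 and 3, against 93.8%, 66.7% and 68.7% of all genes.

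RPS26, a small subunit protein near the exit of the messenger RNA channel, stood at the top of the changes. It measured 274, 343 and 349 FPKM in the controls and 373, 369 and 419 FPKM with TP53TG1. The lowest TP53TG1 library was above the highest control, by a margin smaller than the range within the controls. The log2 change was 0.27 (SE 0.23) as deposited, with a Benjamini-Hochberg adjusted p of 0.748 by limma, and 0.68 after scaling. Scaled values were 247, 288 and 295 in the controls and 620, 334 and 417 with TP53TG1, so TP53TG1 replicate 1 was farthest from the controls. Without both libraries numbered 1 the log2 change as deposited was 0.18. RPS26 was also the only member that was not higher in control replicate 1 than in the mean of control replicates 2 and 3. The gene lies at chr12:56041351-56044697 on the plus strand of GRCh38 by GENCODE 29, and its RefSeq start carries no C-initiated run, as printed above. After RPS26 the members closest to no difference as deposited were RPS25 at -0.04, RPS28 at -0.08, RPL28 at -0.09 and RPL24 at -0.10. For RPS28 the value was -0.21 with its pseudogenes added, so its place in this order is uncertain.

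The lowest log2 changes were those of RPS18, RPLP0, RPL30, RPL13A and RPL26. RPS18, at the head of the small subunit, measured 3076, 1831 and 1555 FPKM in the controls and 1481, 1349 and 1349 FPKM with TP53TG1. The groups did not overlap as deposited, and control replicate 1 was far above the other 5 libraries. Its log2 change was -0.57 (SE 0.29) as deposited, with a Benjamini-Hochberg adjusted p of 0.748 by limma, and -0.16 after scaling, the lowest of any member on both scales. RPS18 lies at chr6:33272010-33276510 on the plus strand.

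RPL30, which sits in the large subunit near its contact with the small one, measured 3962, 2134 and 2088 FPKM in the controls and 1941, 1728 and 1788 FPKM with TP53TG1. RPL13A, which interferon signalling can release from the ribosome, measured 3134, 1659 and 1696 FPKM in the controls and 1774, 1348 and 1341 FPKM with TP53TG1. RPL26, at the exit of the tunnel for the new protein, measured 4622, 2578 and 2602 FPKM in the controls and 2614, 2242 and 2114 FPKM with TP53TG1. The groups separated for RPL30 and overlapped for RPL13A and RPL26, because TP53TG1 replicate 1 reached the lower controls. Their log2 changes were -0.52, -0.49 and -0.44 as deposited and -0.11, -0.08 and -0.03 after scaling.

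The 3 stalk proteins, which recruit translation factors to the large subunit, differed in whether the groups overlapped. RPLP0, the base of the stalk at chr12:120196686-120201235 on the minus strand, measured 3000, 2006 and 2049 FPKM in the controls and 1670, 1587 and 1514 FPKM with TP53TG1. All controls were above all TP53TG1 libraries, and the log2 change was -0.54 (SE 0.24) as deposited and -0.13 after scaling. RPLP1, which binds RPLP0 as a dimer with RPLP2, measured 1597, 851 and 866 FPKM in the controls and 1210, 776 and 766 FPKM with TP53TG1. RPLP2 measured 1664, 951 and 960 FPKM in the controls and 1238, 843 and 800 FPKM with TP53TG1. For RPLP1 and RPLP2 the groups overlapped, since replicate 1 of the TP53TG1 group was above control replicates 2 and 3. The difference between the stalk proteins in their change was not tested.

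RPL5 and RPL11 were both lower in each numbered pair. RPL5 measured 1023, 708 and 703 FPKM in the controls and 578, 616 and 584 FPKM with TP53TG1. RPL11 measured 1604, 1203 and 1105 FPKM in the controls and 1130, 1063 and 964 FPKM with TP53TG1. The groups separated for RPL5 and overlapped for RPL11, with log2 changes of -0.43 and -0.29 as deposited and -0.02 and 0.12 after scaling. Of the other genes of the circuit around MDM2, 9 of 10 found were tested and 0 passed the limma threshold, with 0 at an unadjusted p under 0.05 (1.91% of all genes in the lower direction) and a median of -0.41 as deposited and -0.22 after scaling. With the replicate block 3 of the 9, all lower, had an unadjusted p under 0.05, against 9.65% of all genes. The stress-response gene SESN2 measured 13.4, 40.5 and 42.8 FPKM in the controls and 8.39, 35.3 and 1.77 FPKM with TP53TG1. By limma its Benjamini-Hochberg adjusted p was 0.748 in the main fit. With the replicate block it was 0.000343, and 1.49% of all genes passed. The block fit draws the spread of a gene in part from genes of similar level. That p therefore does not rest on the spread of SESN2 alone, whose drop was very unequal between the numbered pairs. TP53TG1 replicate 3 was the lowest library of SESN2 and gave by far the largest drop.

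RPL41, RPL39 and RPL35 led the large subunit. RPL41, the shortest of the ribosome, measured 6404, 4007 and 4017 FPKM in the controls and 4428, 3514 and 3887 FPKM with TP53TG1. RPL39, which lines the exit tunnel for the new protein, measured 6062, 3367 and 2900 FPKM in the controls and 4118, 2852 and 2756 FPKM with TP53TG1. RPL35, also at the tunnel exit, measured 5293, 3013 and 3139 FPKM in the controls and 4175, 2818 and 2774 FPKM with TP53TG1. In these 3 genes replicate 1 was the highest of its group and the groups overlapped.

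In the small subunit RPS27, RPS2 and RPS24 led. RPS27, a zinc finger protein, measured 5890, 3603 and 3307 FPKM in the controls and 3720, 3086 and 3307 FPKM with TP53TG1. RPS2, near the entry of the messenger RNA channel, measured 5222, 3279 and 3203 FPKM in the controls and 3827, 2752 and 2746 FPKM with TP53TG1. RPS24, mutated in some families with Diamond-Blackfan anaemia, measured 4743, 3688 and 3087 FPKM in the controls and 2718, 3144 and 2932 FPKM with TP53TG1. RPS24 is the exception among the leading genes, as replicate 1 was the lowest of the TP53TG1 group and the highest of the controls.

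Of the lowest tested members, RPS6 varied most between replicates of a group. RPS6, the substrate of S6 kinases, measured 191, 74.3 and 52.4 FPKM in the controls and 162, 55.0 and 56.2 FPKM with TP53TG1. Replicate 1 was over the others in both groups, by 1.60 and 1.52 on the log2 scale. RPS25, needed by some viral internal entry sites, measured 109, 77.0 and 57.4 FPKM in the controls and 88.0, 67.8 and 74.2 FPKM with TP53TG1. RPL21 measured 529, 369 and 337 FPKM in the controls and 326, 310 and 319 FPKM with TP53TG1, without overlap.

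**Figure D3:**
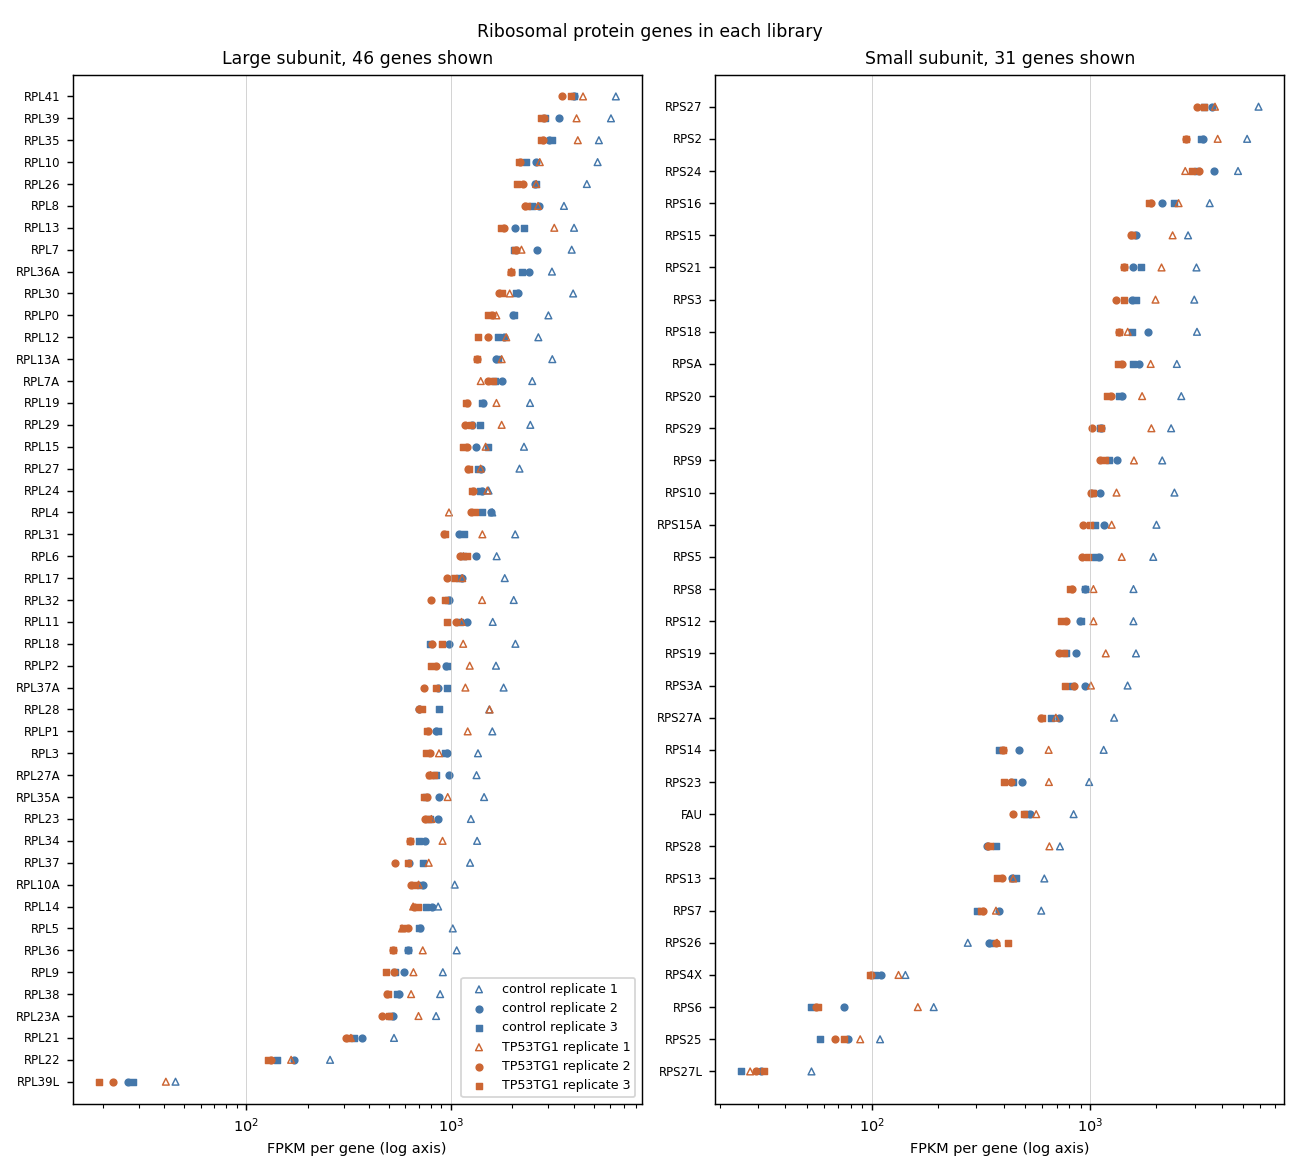
FPKM of tested ribosomal protein genes in each library, on log axes, ordered by mean (triangles, replicate 1; circles, replicate 2; squares, replicate 3; blue, control; orange, TP53TG1). Levels run from RPL41 at 3514 to 6404 FPKM down to RPL39L at 19.1 to 45.3 FPKM, and control replicate 1 lies to the right of the other controls for most genes, but not for RPS26.

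RPSA, the laminin receptor precursor, measured 2487, 1667 and 1567 FPKM in the controls and 1887, 1394 and 1334 FPKM with TP53TG1. RPS19, the gene most often mutated in Diamond-Blackfan anaemia, measured 1616, 854 and 772 FPKM in the controls and 1175, 720 and 753 FPKM with TP53TG1. The X-linked RPS4X measured 142, 110 and 103 FPKM in the controls and 132, 98.9 and 97.4 FPKM with TP53TG1. All 3 overlapped between groups and were lower with TP53TG1 in each numbered pair.

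RPS27A and FAU make their ribosomal protein as a fusion with ubiquitin or a ubiquitin-like protein. RPS27A measured 1283, 715 and 659 FPKM in the controls and 694, 591 and 597 FPKM with TP53TG1. FAU measured 837, 528 and 505 FPKM in the controls and 564, 444 and 495 FPKM with TP53TG1. The groups overlapped for both.

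As a part of the summed FPKM of all ribosomal protein genes, which removes the scale of the library, 8 members did not overlap between the groups. RPS15, RPS25, RPL38, RPS4X and RPL23A held a larger part in every TP53TG1 library, where 1.54% of all genes divided by the same sum did. RPL13A, RPL30 and RPS18 held a smaller part, where 1.25% of all genes did. RPS15 held 1.63%, 1.56% and 1.57% of the sum in the controls and 2.07%, 1.74% and 1.73% with TP53TG1. RPS18 held 1.79%, 1.78% and 1.56% in the controls and 1.29%, 1.52% and 1.51% with TP53TG1. In both genes TP53TG1 replicate 1 was the library farthest from the controls. These parts were not tested. Genes in general did not share the members' higher level in the libraries numbered 1. The 1.54% and 1.25% are therefore not a like background for these counts.

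The libraries numbered 1 stood apart in the ribosomal protein genes of both groups. In control replicate 1 the median member was 0.77 above the mean of control replicates 2 and 3 on the log2 scale, and 79 of 80 members were above it, against 45.8% of all genes. In TP53TG1 replicate 1 the median was 0.38 and 71 of 80 were above, against 21% of all genes. Of 76 mitochondrial ribosomal protein genes, 67 were above in control replicate 1 and 25 in TP53TG1 replicate 1. Of the 832 other genes whose mean reached 100 FPKM, 568 and 305 were. The members ranged from RPS26 at -0.34 to RPS6 at 1.60 in the controls and from RPL4 at -0.39 to RPS6 at 1.52 with TP53TG1. RPL28 (0.98 and 1.12) was also high in both, while RPS14 was at 1.43 and 0.70. Across the 80 members both deviations correlated at r = 0.705, close to 0.710 over all tested genes, a description over genes that share libraries. Their correlation with GC content was 0.152 in the controls and 0.337 with TP53TG1, and with transcript length -0.166 and -0.152, against -0.457 and -0.436 over all genes. Ribosomal protein transcripts are short, at a median of 674 nt against 2146 nt for all tested genes. The part of transcript length, GC content and small RNAs in these deviations was not tested.

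**Figure D4:**
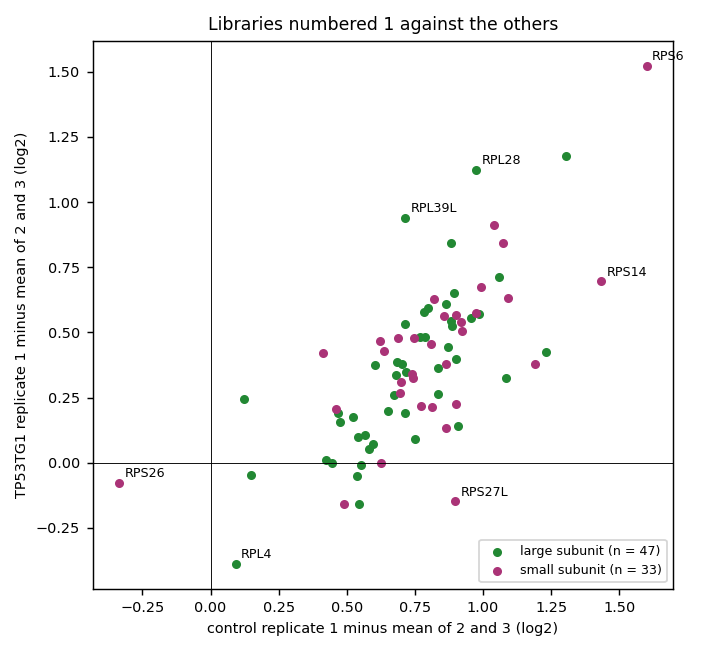
Each point is a ribosomal protein gene, with its log2 level in control replicate 1 minus the mean of control replicates 2 and 3 (horizontal) and the same for TP53TG1 (vertical); green, large subunit; purple, small subunit. Most points lie above 0 on both axes, RPS6 is the farthest at 1.60 and 1.52, and RPS26 is at -0.34 in the controls.

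The tissue-restricted paralogs were low or at the floor. RPL3L was listed at 0.06 FPKM in control replicate 1, at 0.02 in TP53TG1 replicate 1 and at 0 in the other 4 libraries, while RPL3, which it replaces in muscle, measured 1359, 961 and 933 FPKM in the controls and 877, 791 and 760 FPKM with TP53TG1. RPL10L had 0.08 FPKM in TP53TG1 replicate 2 and was listed at 0 in the other 5 libraries. Its X-linked relative RPL10 measured 5216, 2602 and 2322 FPKM in the controls and 2722, 2192 and 2151 FPKM with TP53TG1. Neither paralog passed the filter for testing, and values this low cannot show a difference.

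RPL39L, a testis paralog also found in some tumours, was measured in every library, at 45.3, 26.5 and 28.0 FPKM in the controls and 40.6, 22.5 and 19.1 FPKM with TP53TG1. That was 0.833 ± 0.115% of RPL39 in the controls and 0.822 ± 0.150% with TP53TG1 (SD, n = 3), and the groups overlapped. RPS27L, the paralog of RPS27, measured 52.6, 30.8 and 25.1 FPKM in the controls and 27.6, 29.4 and 31.9 FPKM with TP53TG1. It stood at 0.836 ± 0.0692% of RPS27 in the controls and 0.886 ± 0.126% with TP53TG1, again with overlap. TP53TG1 replicate 1 was the lowest of its group for RPS27L and the highest for RPL39L.

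Of paralogs whose names the selection leaves out, RPL36AL and RPL22L1 were nearest to their relatives. RPL36A measured 3122, 2425 and 2236 FPKM in the controls and 1977, 1961 and 1962 FPKM with TP53TG1, without overlap, and RPL36AL measured 320, 242 and 223 FPKM in the controls and 186, 209 and 285 FPKM with TP53TG1. RPL22, whose loss raises RPL22L1 in mice, measured 258, 172 and 142 FPKM in the controls and 166, 133 and 128 FPKM with TP53TG1. RPL22L1 measured 36.0, 28.0 and 26.4 FPKM in the controls and 27.4, 21.2 and 38.6 FPKM with TP53TG1. RPL22L1 was 16.3 ± 2.32% of RPL22 in the controls and 20.9 ± 8.08% with TP53TG1, and the 30.2% of TP53TG1 replicate 3 was above the other 5 libraries. The groups overlapped for each of these shares, and for RPL26L1 and RPL7L1 as a share of RPL26 and RPL7.

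**Figure D5:**
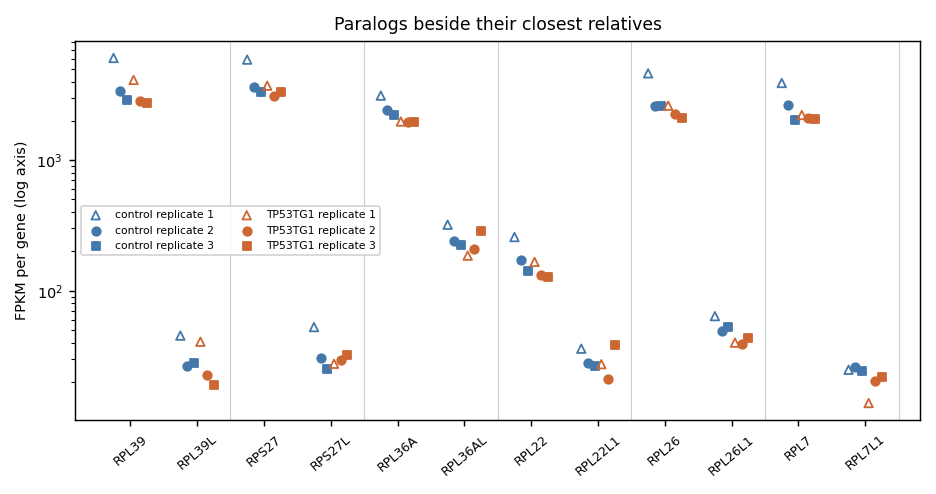
FPKM of paralogs beside their closest relatives in each library, on a log axis (triangles, replicate 1; circles, replicate 2; squares, replicate 3; blue, control; orange, TP53TG1). RPL39L and RPS27L lie near 1% of RPL39 and RPS27 in all libraries, and RPL22L1 in TP53TG1 replicate 3 is nearest to its relative.

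Reads of ribosomal protein genes can also be given to their processed pseudogenes, which are copies of the mRNA. Of 954 pseudogenes named after a member, 292 were above 0 in any library, 17 had a mean of at least 1 FPKM and 4 of at least 100 FPKM. RPL23AP42, at chr3:161429127-161429597 by GENCODE 29, measured 1605, 1501 and 1539 FPKM in the controls and 1119, 1389 and 1356 FPKM with TP53TG1. RPL23A itself, a protein at the tunnel exit, measured 848, 525 and 508 FPKM in the controls and 696, 464 and 499 FPKM with TP53TG1. The pseudogene was thus above the gene in all libraries, and 70.9% of the FPKM of RPL23A and its named pseudogenes lay in the pseudogenes. The same part was 44.7% for RPL9, 45.3% for RPS28 and 27.7% for RPL21, so the levels of these 4 genes are uncertain. With the pseudogenes added, their log2 changes were -0.24, -0.33, -0.21 and -0.25, against -0.16, -0.26, -0.08 and -0.34 for the genes alone. Pseudogenes held between 0.355% and 0.382% of each library.

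Members differed in how far a single transcript led. The leading transcript held a median of 90.8% of its gene's FPKM over 80 members, more than 90% in 42 of them and under 50% in 8. Transcripts annotated as coding led in 75 members and retained-intron transcripts in 5, namely RPS27A, RPL13, RPS23, RPS28 and RPL14. The share of the leading transcript did not overlap between the groups in 6 of 80 members. This is near the share among 11431 genes with at least 2 transcripts, of which 5.24% behaved so. RPL13A ENST00000391857 held 77.1%, 87.7% and 79.6% in the controls and 97.4%, 93.9% and 94.2% with TP53TG1, higher in all 3. The retained-intron transcript ENST00000478196 of RPS27A held 41.1%, 42.5% and 45.2% in the controls and 22.1%, 38.6% and 39.6% with TP53TG1, lower in all 3 and lowest in replicate 1. The others included RPS13, at 83.8 ± 6.97% and 94.0 ± 2.70%, RPL8, at 79.0 ± 0.263% and 71.4 ± 9.73%, and FAU, at 98.1 ± 0.904% and 91.1 ± 4.22% (SD, n = 3). These shares are estimates divided among overlapping transcripts and were not tested.

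RPS24 is spliced near its end into isoforms that differ by a few residues. ENST00000372360 held 56.2%, 48.9% and 46.9% of RPS24 in the controls and 75.9%, 50.6% and 52.1% with TP53TG1. ENST00000464716 held 30.9%, 42.7% and 42.2% in the controls and 12.4%, 40.4% and 37.6% with TP53TG1. Both libraries numbered 1 had less of the latter than the other libraries of their group, and the groups overlapped for both. The leading transcript of RPL23A also set the libraries numbered 1 apart, at 2.57% and 20.1% of the gene against 72.8% to 79.5% in the other 4.

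The genes that make and regulate ribosomes gave no call in the limma fit either. Of 19 translation factors and related genes listed as known TOP mRNAs, 0 passed and 1 (EEF1B2) had an unadjusted p under 0.05, against 1.91% of all genes in the lower direction. With the replicate block 4 of the 19, all lower, did so, against 9.65% of all genes. As deposited 19 were below 0 (91.4% of all genes) and 10 were lower without overlap (13.3%). After scaling 8 were below 0 (50.9%) and 0 were lower without overlap (2.05%). The median was -0.36 as deposited and 0.05 after scaling. EEF1B2, an exchange factor for elongation factor 1A, measured 584, 447 and 425 FPKM in the controls and 295, 344 and 342 FPKM with TP53TG1, and RACK1, a small subunit scaffold, measured 2393, 1500 and 1364 FPKM in the controls and 996, 1225 and 1236 FPKM with TP53TG1. Neither overlapped between groups as deposited, and both had their lowest value in TP53TG1 replicate 1, unlike most ribosomal protein genes. Only 12 of the 19 had a promoter entry, of which 11 had a C-initiated run, against 47 of 65 ribosomal protein genes. Ribosome assembly factors (26 tested), RNA polymerase I and its factors (15) and regulators of TOP mRNAs (11) had 0 past the threshold and 0 at an unadjusted p under 0.05 each, with medians of -0.30, -0.27 and -0.44 as deposited and 0.10, 0.11 and -0.06 after scaling. The TOP repressor LARP1 measured 26.1, 37.7 and 52.8 FPKM in the controls and 12.5, 39.4 and 40.6 FPKM with TP53TG1. Its groups overlapped, and the library numbered 1 was the lowest of each group, the opposite of most ribosomal protein genes.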

How the data were processed

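RNA was extracted and made into libraries with a TruSeq RNA kit, per the labels' protocols. The authors made the deposited FPKM with tools that include the aligner HISAT2 and the quantifier StringTie on GRCh38.p10, per the submitters' processing notes. Versions, settings, strand and RNA selection were not given in the sources used here. Headers of the tables name no unit. FPKM was inferred, since values are not whole and totals differ (599081 to 890541); coverage per base could not be told apart from it, depth in reads is unknown, and the count test planned for counts did not apply. FPKM of 199234 transcripts were summed per gene. Blank symbols were filled by transcript from the other tables. Positions, types and lengths came from GENCODE 29, which held 99.8% of the transcripts.

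Genes whose mean reached 1 FPKM entered the test on log2(FPKM + 1), which understates changes of low genes, with limma 3.58.1 (trended eBayes, R 4.3.3) and Benjamini-Hochberg adjustment at 0.05. The tables were joined with pandas 2.3.3. The fit was tested on simulated data. Across all genes, same-numbered libraries deviated together from their group means (r = 0.710, 0.562 and 0.289 for numbers 1, 2 and 3). Each r exceeds 0.1, so libraries were also compared by number, from the data and not from the labels. The main limma fit did not use these pairs. Libraries of unlike number also correlated, control replicate 3 with TP53TG1 replicate 2 at 0.400 and control replicate 2 with TP53TG1 replicate 3 at 0.302. Both exceed the 0.289 of number 3, so the data do not single out that pair. Alternatives were the replicate block, 2 scalings, other filters and pseudocounts, and left-out libraries; adding pseudogenes was chosen after seeing the data. Named genes were paralogs with their relatives, the 3 highest and lowest of each subunit, the 5 highest and lowest changes, and members by role. Genes named for pseudogenes, transcripts, library 1 or parts of the sum were chosen after their values were seen. Members and lists were chosen with earlier results of these data known. The results of some genes are not reported here, though counts over all members include them.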

Additional observations from a re-analysis of the deposited data

How the results depend on the processing

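With limma, 0 ribosomal protein genes passed the adjusted threshold under all 15 alternatives run. At an unadjusted p under 0.05 there were 0 as reported, 7 with the replicate block and 17 without both libraries numbered 1. The median log2 change of the members, -0.31, became 0.10 with median-of-ratios scaling and 0.10 with the replicate block and that scaling, and -0.04 on the TPM scale. It ran from -0.46 to -0.06 when 1 library was left out. The replicate block alone leaves it at -0.31, and 0 members pass. The large minus small subunit difference, -0.0134 as reported, ran from -0.0733 without control replicate 1 to 0.00823 without TP53TG1 replicate 1. The difference in summed share, -0.54 percentage points, ran from -2.17 to 0.889, with both ends set by the libraries numbered 1, and that in the subunit ratio, -0.02, from -0.04 to -0.00. Without a filter on low values the median relative to all genes was -0.17. The causes were not tested. RPS26 stayed above 0 as a log2 change and RPS18 below 0 in every setting. With 3 libraries a group, exact permutation over single genes cannot reach 0.05, and depth per gene is unknown.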
